A study of Mus musculus with 6 samples.

Results

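The 10 genes described here encode enzymes that reduce anthracyclines and pumps that export them: Cbr1, Cbr3, Akr1a1, Akr1b3, Por, Xdh, Abcb1a, Abcb1b, Abcc1 and Abcg2. They were fixed by name, with earlier results of these data known, and all 10 were found among the 24972 rows of the deposited gene table. RNA came from ventricular myocytes of MX1gfp mice, a reporter line with green fluorescent protein at the interferon-induced Mx1 gene, and both groups carried that reporter. The vehicle group (3 mice) received 100 microlitres of phosphate buffered saline into the peritoneum, and the doxorubicin group (3 mice) received the same volume with doxorubicin at 25 mg per kg of body weight. Hearts were collected 48 hours after the single dose, digested with collagenase, and the myocytes were left to settle by gravity, a step that enriches them without sorting. The labels give no age, sex or sequencing batch, and each library is taken to be 1 mouse. Values are normalized counts, that is, read counts per gene after the authors' scaling between libraries.

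Doxorubicin is an anthracycline whose quinone ring and side-chain ketone are both targets of cellular reductases. Carbonyl reductases and aldo-keto reductases transfer electrons in pairs to the ketone and yield doxorubicinol, an alcohol metabolite linked to cardiac toxicity. Flavoenzymes such as cytochrome P450 reductase and xanthine dehydrogenase pass single electrons to the quinone, and the resulting semiquinone can pass its electron on to oxygen. ABC transporters of the B, C and G families use ATP to move the drug out of cells, and in the heart P-glycoprotein and Abcg2 are best known from the lining of small vessels.

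Totals of normalized counts ran from 7217170 to 7499710 in the vehicle libraries and from 5410120 to 6497700 in the doxorubicin libraries. The number of reads, judged from the steps between low values, was about 7710000 to 11370000 and 3670000 to 6170000, so depth and treatment cannot be told apart. Doxorubicin replicate 1 resembled the vehicle libraries most, with a mean Spearman correlation to them of 0.980 across genes, against 0.906 and 0.870 for replicates 2 and 3. Over 12475 genes with a mean of at least 10, limma with Benjamini-Hochberg adjustment called 0 genes (0%) at the threshold of 0.05, and 4485 (36%) had an unadjusted p under 0.05. Leaving out doxorubicin replicate 1 gave 2420 genes higher (19.4% of 12474) and 2715 lower (21.8%). Because that library decides the number of calls, each difference of the 10 genes is given with and without it, and related genes with counts or values without it. That library was singled out by its values, so fits without it are descriptions and not independent tests. Leaving out the treated library nearest to vehicle favours larger differences and smaller p-values.

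All 10 genes passed the filter on low values. With 6 libraries limma called 0 of the 10, and 5 had an unadjusted p under 0.05: Cbr3, Xdh, Abcb1a, Abcb1b and Abcg2. The same 5 were the ones whose lowest doxorubicin library lay above the highest vehicle library, a pattern seen in 19.2% of all genes tested. Cbr1 alone lay below every vehicle library, as 22.6% of genes did. The median difference of the 10 genes, doxorubicin minus vehicle on the log2(normalized count + 1) scale, was 0.90, beside -0.0046 for all genes tested. Without doxorubicin replicate 1, 6 of the 10 passed as higher (the 5 above and Por) and 1 as lower (Cbr1). In that fit 19.4% of all genes tested passed as higher and 21.8% as lower.

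**Figure D1:**
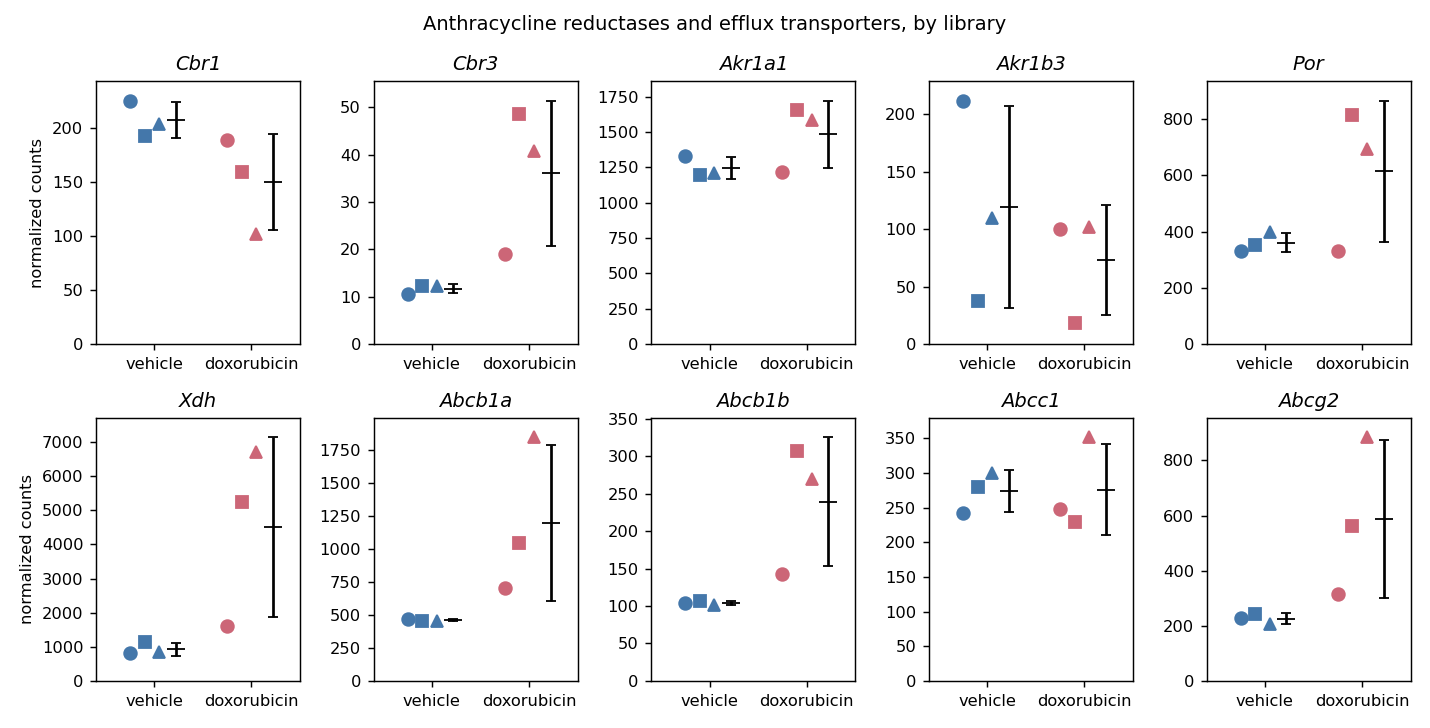
Normalized counts of the 10 genes in each library, 1 panel per gene with its own axis from 0. Circles, squares and triangles are replicates 1, 2 and 3 of the vehicle (blue) and doxorubicin (red) groups, which are not paired, and black bars are the group mean and SD (n = 3). In Cbr3, Xdh, Abcb1a, Abcb1b and Abcg2 all 3 doxorubicin libraries lie above the vehicle libraries, with replicate 1 the lowest of them.

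**Figure D2:**
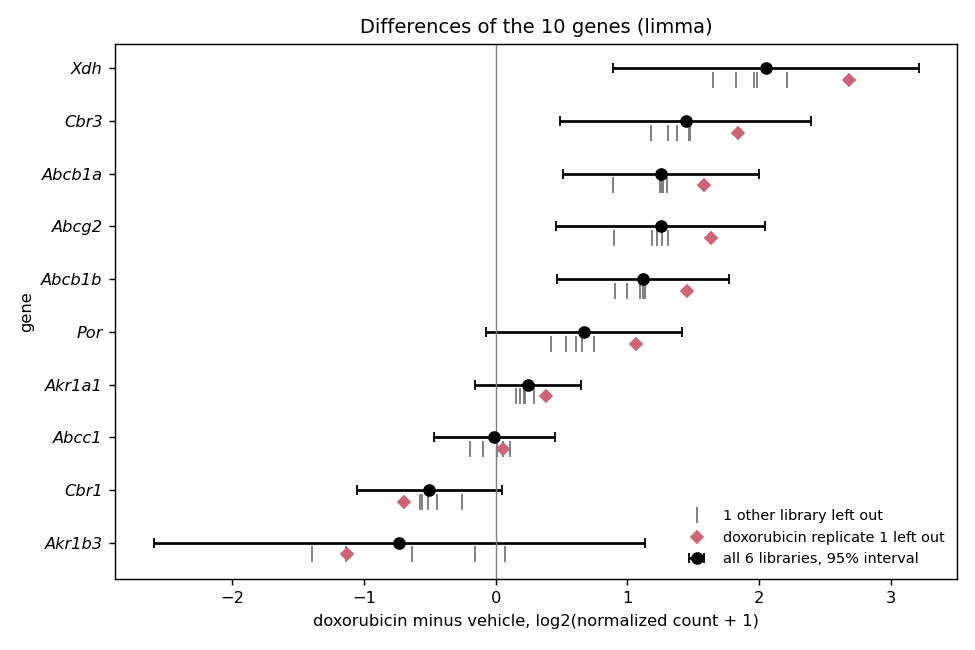
Difference of each gene, doxorubicin minus vehicle on the log2(normalized count + 1) scale. Black points are the limma estimate from 6 libraries with its 95% interval, grey ticks the estimate with 1 other library left out and red diamonds the estimate without doxorubicin replicate 1. Xdh has the largest difference at 2.05, and the interval of Abcc1, from -0.47 to 0.45, spans 0 almost evenly.

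Cbr1 and Cbr3 are short-chain carbonyl reductases that lie 72869 bases apart on chromosome 16 (GRCm38), with no protein-coding gene (0) between them. Cbr1 occupies 93607837 to 93610349 and Cbr3 93683219 to 93690991, both on the plus strand. Their coding sequences have 834 bases each and are 77.9% identical, and 0% of the 75-base stretches of either transcript occur in a transcript of another gene, so reads of that length can be told apart. Their differences had opposite signs. The 250 bases before each start are shown because the pair differs in them, with capitals marking GCGTG on either strand, the core of the xenobiotic response element (chr16:93607587-93607836 for Cbr1 and chr16:93682969-93683218 for Cbr3, plus strand, RefSeq GRCm38.p6).
Cbr1: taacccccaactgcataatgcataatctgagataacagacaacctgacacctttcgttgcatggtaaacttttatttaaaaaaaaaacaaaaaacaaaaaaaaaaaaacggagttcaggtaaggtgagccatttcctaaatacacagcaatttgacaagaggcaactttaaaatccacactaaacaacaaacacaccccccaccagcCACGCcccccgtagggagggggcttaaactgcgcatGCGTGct
Cbr3: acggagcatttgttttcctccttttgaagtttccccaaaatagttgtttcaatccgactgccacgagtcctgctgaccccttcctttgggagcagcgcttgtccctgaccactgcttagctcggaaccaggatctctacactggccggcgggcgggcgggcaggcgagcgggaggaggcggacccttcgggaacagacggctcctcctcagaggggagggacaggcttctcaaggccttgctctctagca
The Cbr1 window held 2 such matches, the Cbr3 window 0 and the window found for Por, at an internal start, 3. Of the 9 windows found for 7 of the 10 genes, only these 2, of Cbr1 and Por, held a match. Over all 32851 promoter windows 28.2% held at least 1. The core of the antioxidant response element, TGACNNNGC, was in 0 of the 9 windows on either strand and in 10.2% of all windows. Any link of these matches to the differences was not tested.

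Cbr1 is the main carbonyl reductase studied for doxorubicinol formation. Vehicle replicates 1 to 3 had 226, 193 and 204 normalized counts, and doxorubicin replicates 1 to 3 had 189, 159.8 and 102. Every doxorubicin library was below every vehicle library, but replicate 1 missed the lowest vehicle value by little. The difference was -0.50 (SE 0.24, limma adjusted p 0.165), and -0.69 without doxorubicin replicate 1 (adjusted p 0.0314). It shrank to -0.25 without doxorubicin replicate 3. Scaling all libraries to equal totals gave -0.20, and the groups then overlapped.

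Cbr3, the less abundant paralog, had 10.7, 12.4 and 12.2 normalized counts after vehicle and 18.9, 48.6 and 40.7 after doxorubicin. The lowest doxorubicin library exceeded the highest vehicle library, and replicates 2 and 3 stood well apart from replicate 1. These values rest on about 13 to 17 reads per vehicle library and 18 to 40 reads per doxorubicin library, so counting error is part of the spread. The means were 11.7 ± 0.936 and 36.1 ± 15.3 (SD, n = 3 in each group). The difference was 1.44 (SE 0.41, limma adjusted p 0.0860), and 1.84 without doxorubicin replicate 1 (adjusted p 0.00372).

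The balance between the paralogs does not depend on how libraries are scaled to each other. Per kilobase of transcript, Cbr3 made up 4.76%, 6.34% and 5.94% of the Cbr1 and Cbr3 sum in the vehicle libraries. In doxorubicin replicates 1 to 3 it made up 9.58%, 24.3% and 29.6%. The groups did not overlap, and an exact two-sided permutation test gave p = 0.1, the smallest that 3 libraries against 3 allow. Abcb1b, treated the same way, made up 20.8% ± 0.487 of the Abcb1a and Abcb1b sum after vehicle and 19.7% ± 5.51 after doxorubicin (SD, n = 3 in each group; exact permutation p = 0.7). These shares were computed after the values had been seen.

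**Figure D3:**
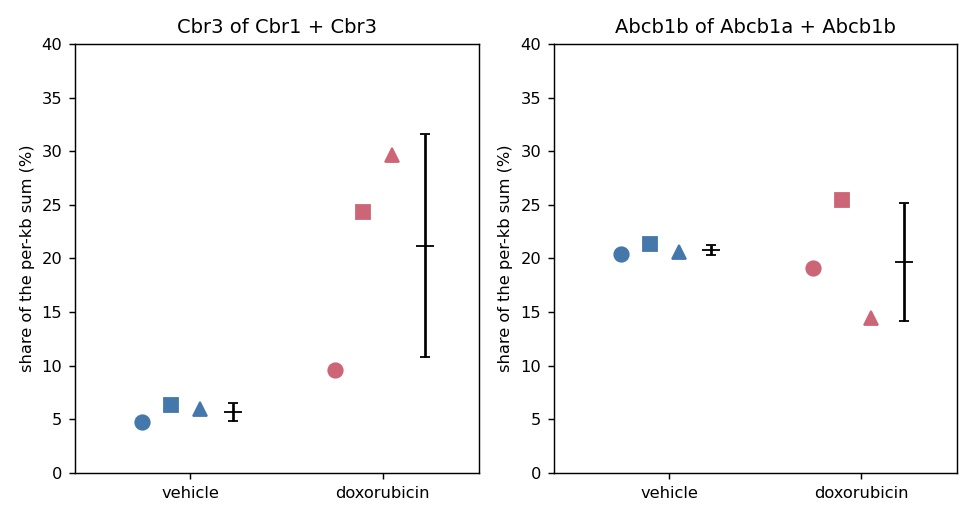
Share of Cbr3 in the sum of Cbr1 and Cbr3, and of Abcb1b in the sum of Abcb1a and Abcb1b, both per kilobase of the longest coding transcript, in percent. Circles, squares and triangles are replicates 1, 2 and 3 and black bars the mean and SD (n = 3). The Cbr3 share lies between 4.76% and 6.34% after vehicle and between 9.58% and 29.6% after doxorubicin, whereas the Abcb1b shares of the groups overlap.

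Akr1a1 (chromosome 4, 116636510 to 116651674, minus strand) encodes aldehyde reductase, an abundant NADPH-dependent enzyme that accepts many aldehydes and also anthracycline ketones. It had 1331, 1195 and 1209 normalized counts after vehicle and 1215, 1655 and 1586 after doxorubicin. Replicate 1 lay inside the vehicle range and replicates 2 and 3 above it. The difference was 0.24 with a 95% interval from -0.16 to 0.65 (limma adjusted p 0.333), and 0.38 without doxorubicin replicate 1 (adjusted p 0.0677).

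Akr1b3 (chromosome 6, 34303930 to 34317489, minus strand) encodes mouse aldose reductase, the first enzyme of the polyol pathway. Its row was the least even of the 10, with 212, 37.3 and 109 normalized counts after vehicle and 99.8, 18.0 and 101 after doxorubicin. The groups overlapped throughout, and the vehicle values varied by 73.4% (SD over mean), against 1.96% to 20.1% for the other 9 genes. The difference was -0.73 with a 95% interval from -2.60 to 1.14 (limma adjusted p 0.530), -1.13 without doxorubicin replicate 1, and 0.075 without doxorubicin replicate 2.

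The table also holds Gm6644, a processed pseudogene of Akr1b3 on chromosome 1 (55444074 to 55445024, minus strand, GENCODE M21). It matches the 951 coding bases of Akr1b3 with 3 mismatches and 0 gaps. In all, 80.2% of the 75-base stretches of the Akr1b3 transcript occur in transcripts of 4 other annotated loci. Gm38056, which is not a row of the table used here, holds 74.5% of the Akr1b3 stretches and Gm6644 holds 49.7%. Of the 862 stretches of 90 coding bases, 592 are identical in both. The stretch from coding base 476 to 565 is shown because it holds 1 of the few bases by which reads could be told apart, in capitals.
Akr1b3: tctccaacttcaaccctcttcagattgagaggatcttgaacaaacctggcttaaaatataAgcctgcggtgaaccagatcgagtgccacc
Gm6644: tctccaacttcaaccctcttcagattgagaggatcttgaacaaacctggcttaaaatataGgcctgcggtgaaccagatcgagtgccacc

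Gm6644 had 1673, 1845 and 1752 normalized counts after vehicle, and 1270.5, 816 and 542 after doxorubicin. Vehicle replicate 2 had the lowest vehicle Akr1b3 and the highest Gm6644. Summed, the rows gave 1885, 1882 and 1861 after vehicle and 1370.3, 834 and 643 after doxorubicin, so the vehicle spread shrank to 0.681% of the mean. Every doxorubicin sum lay below every vehicle sum, with a difference of -1.05 (SE 0.27, limma adjusted p 0.0859), and -1.36 without doxorubicin replicate 1 (adjusted p 0.000704). The part of the sum listed under Akr1b3 ran from 1.98% to 15.8% over the 6 libraries, and how the authors' counting divided shared reads was not tested. Adding the rows was decided after the values had been seen.

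**Figure D4:**
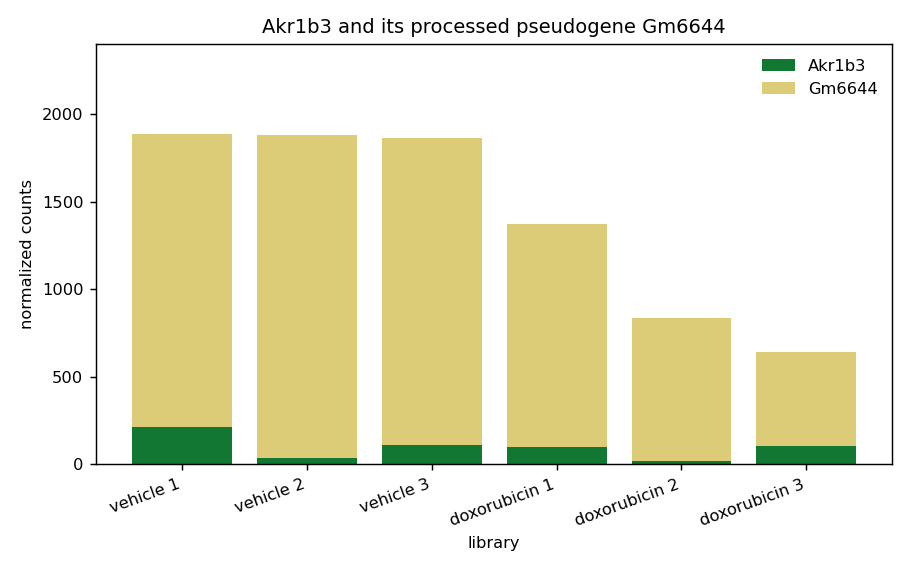
Normalized counts of Akr1b3 (green) and its processed pseudogene Gm6644 (yellow), stacked for each of the 6 libraries. The sums lie between 1861 and 1885 in the vehicle libraries and at 1370.3, 834 and 643 in doxorubicin replicates 1 to 3, while the Akr1b3 part varies within both groups.

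Por (chromosome 5, 135670040 to 135735326, plus strand) encodes cytochrome P450 reductase, which supplies electrons to microsomal P450 enzymes and can reduce the quinone of doxorubicin. The vehicle libraries had 331, 353 and 398 normalized counts and the doxorubicin libraries 333, 816 and 695. Replicate 1 fell within the vehicle range, so the groups overlapped. The difference was 0.67 with a 95% interval from -0.07 to 1.41 (limma adjusted p 0.169), and 1.06 without doxorubicin replicate 1 (adjusted p 0.00149). It was 0.42 without doxorubicin replicate 2. Genes on the opposite strand overlap Por, Akr1b3, Abcb1a and Abcb1b, and with no statement on strand their reads cannot be told apart.

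Xdh (chromosome 17, 73883895 to 73950397, minus strand) encodes xanthine dehydrogenase, which forms urate in purine breakdown and in its oxidase form produces superoxide and hydrogen peroxide. It had 809.6, 1148 and 838 normalized counts after vehicle and 1598, 5229.6 and 6706 after doxorubicin. All 3 doxorubicin libraries were above the vehicle libraries, and replicates 2 and 3 exceeded replicate 1 several times over. The group means were 932 ± 188 and 4511 ± 2629 (SD, n = 3 in each group), a ratio of 4.84. The difference of 2.05 (SE 0.50, limma adjusted p 0.0860) was the largest of the 10 genes, and it was 2.68 without doxorubicin replicate 1 (adjusted p 0.000173). Per kilobase, Xdh stood at 203 ± 40.8 after vehicle and 981 ± 571 after doxorubicin.

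Abcb1a and Abcb1b are the rodent pair that together do the work of the single human P-glycoprotein gene. They lie 49571 bases apart on chromosome 5, at 8567091 to 8748575 and 8798147 to 8866314 on the plus strand, followed by Abcb4. Their coding sequences of 3831 bases are 88.2% identical, and 12.7% and 13.4% of their 75-base stretches occur in other genes' transcripts, so a minority of reads could be assigned to either. The 250 bases before each start are shown for the pair because both genes had higher values after doxorubicin (chr5:8566841-8567090 and chr5:8797897-8798146, plus strand, RefSeq GRCm38.p6). Neither window held the 2 motifs searched above, so no letters are in capitals.
Abcb1a: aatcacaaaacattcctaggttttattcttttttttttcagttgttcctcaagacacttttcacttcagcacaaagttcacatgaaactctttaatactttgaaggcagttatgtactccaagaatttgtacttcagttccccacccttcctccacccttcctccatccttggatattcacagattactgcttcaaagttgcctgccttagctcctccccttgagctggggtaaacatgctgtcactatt
Abcb1b: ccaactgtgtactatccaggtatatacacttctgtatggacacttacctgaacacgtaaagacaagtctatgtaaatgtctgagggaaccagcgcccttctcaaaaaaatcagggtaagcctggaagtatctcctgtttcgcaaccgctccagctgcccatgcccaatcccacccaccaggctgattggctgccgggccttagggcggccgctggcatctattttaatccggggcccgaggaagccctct
The GC content was 40.4% before Abcb1a and 52.8% before Abcb1b.

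Vehicle replicates 1 to 3 held Abcb1a at 472, 458 and 455 normalized counts, and doxorubicin replicates 1 to 3 at 702, 1044 and 1848. The vehicle SD was 1.96% of the mean, and each doxorubicin library was above all of them. The difference was 1.26 (SE 0.32, limma adjusted p 0.0860), 1.59 without doxorubicin replicate 1 (adjusted p 0.00150) and 0.89 without doxorubicin replicate 3. Abcb1b had 104, 107 and 102 after vehicle and 143, 307 and 269 after doxorubicin. Its groups did not overlap either, with the highest value in replicate 2, whereas Abcb1a was highest in replicate 3. The difference was 1.12 (SE 0.28, adjusted p 0.0860), and 1.45 without doxorubicin replicate 1 (adjusted p 0.000446).

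Abcg2 (chromosome 6, 58584491 to 58692451, plus strand) encodes the breast cancer resistance protein, a pump that also exports urate. It had 229, 244 and 206 normalized counts after vehicle and 315, 563 and 884 after doxorubicin. No doxorubicin library fell within the vehicle range. The difference was 1.25 (SE 0.34, limma adjusted p 0.0860), 1.64 without doxorubicin replicate 1 (adjusted p 0.000843) and 0.90 without doxorubicin replicate 3.

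Abcc1 (chromosome 16, 14361453 to 14474878, plus strand) encodes multidrug resistance protein 1, which exports glutathione conjugates and anthracyclines. Its values were 242, 280.3 and 300.2 normalized counts after vehicle and 248, 229 and 352 after doxorubicin. The doxorubicin libraries bracketed the vehicle range. The difference was -0.01 with a 95% interval from -0.47 to 0.45 (limma adjusted p 0.979), and 0.06 without doxorubicin replicate 1. Its sign was positive under equal totals and quantile normalization, so no direction is given.

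Levels of different genes were set side by side per kilobase of the longest coding transcript. In the vehicle libraries Akr1a1 led with 877 ± 52.6 normalized counts per kb, followed by Xdh at 203 ± 40.8, Cbr1 at 168 ± 13.4, Por at 137 ± 12.9 and Abcb1a at 92.4 ± 1.81 (SD, n = 3). Abcc1 at 40.4 ± 4.37 and Abcg2 at 39.6 ± 3.41 did not differ beyond their spread, and the ranges of Xdh and Cbr1 overlapped in part. Abcb1b followed at 24.2 ± 0.628 and Cbr3 was lowest at 10.0 ± 0.80. After doxorubicin Akr1a1 (1046 ± 167) and Xdh (981 ± 571) overlapped at the top, Abcb1a (239.7 ± 118) and Por (233 ± 95.4) came next, and Cbr1 followed at 122 ± 35.7. Akr1b3 alone stood at 86.1 ± 63.2 after vehicle, but its sum with Gm6644 came to 1353 ± 9.20, above Akr1a1, and to 684 ± 272 after doxorubicin.

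The wider families were described with lists that include the members. Of 10 carbonyl and related short-chain reductases, 10 were tested, 5 with higher and 5 with lower values after doxorubicin, and 3 and 4 of them without overlap, patterns seen in 19.2% and 22.6% of all genes tested. Limma called 0, and without doxorubicin replicate 1 it called 5 higher and 4 lower, beside 19.4% and 21.8% of all genes tested. Dhrs7c, a reductase of heart and skeletal muscle, had 876, 803 and 766 normalized counts after vehicle and 551, 185 and 195 after doxorubicin (difference -1.58, limma adjusted p 0.0860). Without doxorubicin replicate 1 the difference was -2.09 (limma adjusted p 0.000128). Cbr4, a mitochondrial quinone reductase and fatty acid synthesis enzyme, went from 269 ± 22.3 to 133 ± 50.7 (-1.07), and Dhrs4 from 671 ± 26.5 to 411 ± 107 (-0.74). Dhrs3, which reduces retinal, was higher in each doxorubicin library (565 ± 51.1 against 829 ± 37.1, 0.55).

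Among 16 aldo-keto reductases 8 were tested, 2 with higher and 6 with lower values, and 5 were at 0 in every library. Limma called 0, and without doxorubicin replicate 1 it called 1 higher (Akr1b8) and 2 lower (Akr1b10 and Akr7a5) of 7 tested. Of all genes tested that fit called 19.4% higher and 21.8% lower. Akr1b8 was higher without overlap, at 30.03 ± 2.32 against 70.7 ± 24.6 normalized counts (1.14, limma adjusted p 0.0860). Its relative Akr1b10 went the other way, from 425 ± 14.8 to 206 ± 96.5 (-1.14), as did Akr7a5, an aldehyde reductase, from 381 ± 52.0 to 211 ± 94.2 (-0.92). Akr1b8 and Akr1b10 have 73.1% and 74.4% coding identity to Akr1b3, and neither shares a 75-base stretch with its transcript.

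Of 13 quinone reductases and related flavoenzymes, 12 were tested, 8 higher and 4 lower, with 3 and 1 free of overlap, near or below the 19.2% and 22.6% of all genes tested. Limma called 0, and without doxorubicin replicate 1 it called 5 higher and 1 lower (Nqo2, -1.60). Of all genes tested that fit called 19.4% higher and 21.8% lower. Cyb5r3, the NADH-cytochrome b5 reductase, had 896 ± 69.1 normalized counts after vehicle and 1459 ± 274 after doxorubicin (difference 0.69, limma adjusted p 0.0860). Ndor1 had a difference of 0.54. Nqo2, which reduces quinones by electron pairs, was lower without overlap, at 448 ± 68.7 against 222 ± 132 (-1.15, adjusted p 0.0865).

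Of 16 efflux genes 13 were tested, 9 higher and 4 lower, with 6 and 3 free of overlap, against 19.2% and 22.6% of all genes tested. Limma called 0, and without doxorubicin replicate 1 it called 5 higher and 3 lower, beside 19.4% and 21.8% of all genes tested. Abcb1a, Abcb1b and Abcg2 are among those called higher without doxorubicin replicate 1. Abcc1, which is also in this list, was called in neither fit (difference -0.01 with all libraries). Abcc3, an exporter of bile acid and glucuronide conjugates, had 20.2, 12.6 and 17.3 normalized counts after vehicle and 34.1, 53.8 and 113 after doxorubicin (1.79, limma adjusted p 0.0860; 2.18 without doxorubicin replicate 1). The vault protein gene Mvp had a difference of 0.27 with overlap. The mitochondrial transporters Abcb8 and Abcb10 had lower values. Abcb8, which has been linked to iron and doxorubicin export from mitochondria, had 630, 645 and 722 after vehicle and 504, 346 and 213 after doxorubicin (-0.99, adjusted p 0.0860; -1.28 without doxorubicin replicate 1), and Abcb10 had a difference of -0.79.

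Among 13 genes listed as uptake carriers, which include the efflux carrier Slc47a1, 8 were tested, 4 higher and 4 lower. Limma called 0, and without doxorubicin replicate 1 it called 2 higher and 4 lower, beside 19.4% and 21.8% of all genes tested. Slc22a3, the organic cation transporter OCT3 that carries doxorubicin into cardiomyocytes, had 63.5, 95.8 and 91.7 normalized counts after vehicle and 75.9, 6.04 and 10.4 after doxorubicin. Replicate 1 lay in the vehicle range and replicates 2 and 3 far below it (difference -2.19, limma adjusted p 0.105). Without doxorubicin replicate 1 the difference was -3.22 (limma adjusted p 0.000411). The organic anion transporter gene Slco2b1 was higher without overlap, at 235 ± 44.7 against 634 ± 269 (1.34, adjusted p 0.0860; 1.74 without doxorubicin replicate 1), and so was Slco1a4, at 1.30, 0 and 7.15 against 7.34, 37.2 and 30.02 (3.01, a value that depends on the pseudocount at so few reads). The efflux carrier Slc47a1 was lower, at 484 ± 24.5 against 303 ± 79.9 (-0.70). The nucleoside carrier Slc29a1 overlapped (-0.34).

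Markers of other cells also differed between the groups. In bulk RNA, fewer cells of a type and less RNA per cell cannot be told apart. All 10 cardiomyocyte markers were detected, and all 10 had lower values after doxorubicin, 7 without overlap, beside 22.6% of all genes tested. Myh6, the adult myosin heavy chain, overlapped between the groups (181986, 272263 and 300008 normalized counts against 225671, 33549 and 47431), and myoglobin, Mb, did not (99943 ± 2812 against 43004 ± 24832). The sum of all 10 cardiomyocyte markers ran from 716514 to 817458 normalized counts after vehicle and was 617810, 215600 and 182715 in doxorubicin replicates 1 to 3. For higher values the share of all genes tested without overlap was 19.2%. Of 10 endothelial markers 9 were higher, 7 without overlap, and Kdr was lower (4036 ± 509 against 3566 ± 1497). Their sum ran from 15322 to 20168 after vehicle and from 23741 to 30695 after doxorubicin. Of 10 macrophage markers 10 were higher, 9 without overlap (Lyz2 766 ± 35.8 against 3425 ± 2953), with sums of 2583 to 2791 against 4238 to 15615. Fibroblast markers were higher in 9 of 10, 5 without overlap, and Col3a1 was lower (1716 ± 479 against 1381 ± 759). Dcn had the largest difference of this list (2706 ± 236 against 10837 ± 7491), and Col1a1 (0.18) and Postn (0.037) had small ones. The fibroblast sums were 14225 to 17500.2 against 20607 to 55145. Gsn (8469 ± 749 against 23605 ± 10464) and Dcn made up most of them. No marker of these 4 lists was at 0 in every library. Neutrophil markers summed to 19.4 to 37.0 after vehicle and 78.2 to 680.0 after doxorubicin, with Ly6g and Retnlg at 0 in all vehicle libraries. Mural markers summed to 26881 to 30951 and 21064 to 25971. Des, which cardiomyocytes also express, made up much of that sum, and without it the groups overlapped (10299 to 15230 against 11783 to 13977). Atrial markers summed to 456 to 526 after vehicle and to 1426, 368 and 692 in doxorubicin replicates 1 to 3. Erythroid markers summed to 1211 to 2104 after vehicle and to 9027, 250 and 421 in doxorubicin replicates 1 to 3, with Hbb-bs at 0 throughout. Replicate 1 thus had the highest atrial and erythroid sums of all libraries.

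Relative to the vehicle mean, the endothelial sum was higher by 0.50, 0.36 and 0.73 on the log2 scale in replicates 1 to 3, and Xdh by 0.80, 2.51 and 2.86. Per 1000 normalized counts of endothelial markers Xdh had 40.4, 56.9 and 54.7 after vehicle and 61.2, 220.3 and 218 after doxorubicin, which did not overlap (exact permutation p = 0.1). Per 1000 of macrophage markers (290.1, 419 and 325 against 377, 705 and 429) and of fibroblast markers the Xdh values overlapped. By the same endothelial measure Abcb1a (23.5, 22.7 and 29.7 against 26.9, 44.0 and 60.2) and Abcg2 (11.4, 12.1 and 13.4 against 12.1, 23.7 and 28.8) overlapped through replicate 1. So did Cbr3 and Abcb1b, whereas Cbr1 and Abcc1 were lower without overlap, and Akr1a1, Akr1b3 and Por overlapped. Relative to the fibroblast sum, Abcb1a (29.8 ± 2.64 against 31.6 ± 11.7 per 1000), Abcb1b, Abcg2 and Akr1b3 overlapped too. There Cbr1, Akr1a1, Por and Abcc1 were lower without overlap, and Cbr3 was higher. Relative to the macrophage sum, Cbr1, Akr1a1, Por, Abcc1, Abcg2 and Abcb1a were lower after doxorubicin without overlap (Abcb1a 171 ± 4.73 against 142 ± 23.7 per 1000). Relative to the cardiomyocyte sum, 8 of the 10 genes were higher without overlap, Abcc1 among them (0.353 ± 0.0150 against 1.13 ± 0.764 per 1000), and Cbr1 and Akr1b3 overlapped. The cardiomyocyte sum was itself lower and the macrophage, fibroblast and endothelial sums higher in every doxorubicin library, so a gene with unchanged values also shifts in these ratios. The share of all genes with such shifts was not computed, so these counts have no background. The part of other cells in the differences was not tested.

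**Figure D5:**
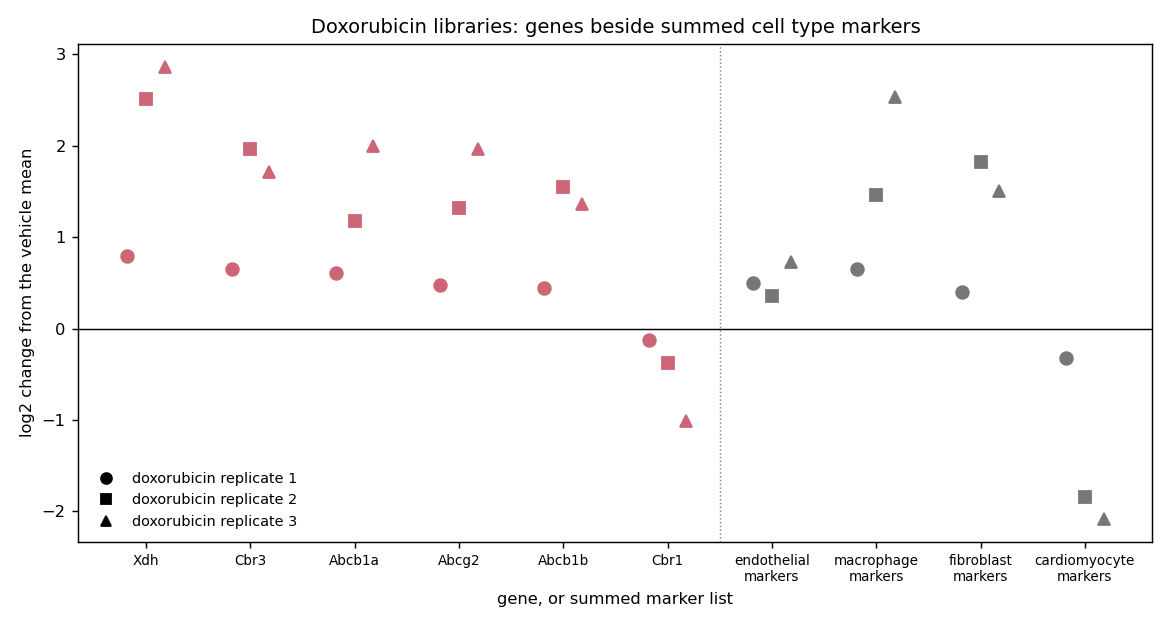
Log2 change of each doxorubicin library from the vehicle mean for 6 of the genes (red, left; log2 of normalized count + 1) and for the summed markers of 4 cell types (grey, right). Circles, squares and triangles are doxorubicin replicates 1, 2 and 3. Xdh lies above the endothelial sum in each library, the macrophage sum reaches 2.53 in replicate 3, and the cardiomyocyte sum lies at -0.33, -1.84 and -2.08.

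Although the labels give no sex, the libraries fell into 2 classes by Xist and Y-linked transcripts, with both classes in each group. Vehicle replicate 3 and doxorubicin replicates 1 and 3 held Xist at 1558 to 2093 normalized counts and Ddx3y at 0. Within these libraries the differences were 1.96 for Xdh, 1.13 for Cbr3, -0.55 for Cbr1 and 0.27 for Por. Within the other 3 libraries, which held Y-linked transcripts, they were 2.44 for Xdh, 1.99 for Cbr3, -0.38 for Cbr1 and 1.25 for Por. Each class has a single library in 1 of its groups, so these values carry no test.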

How the data were processed

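Alignment was to mm10 with RefSeq genes by STAR in BaseSpace, per the series' design text, and the submitters' processing notes name STAR 2.6.1a and Salmon. Counting, strand, read length and scaling are not stated in those sources. The deposited signal is the authors' normalized counts per gene, 1 column per library, not whole numbers, and 2 rows with repeated names were left out. In each library 80.0% to 92.5% of the low values lay within 0.1 of a whole multiple of the most common low value, so whole reads were not recovered and no count test was run.

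Values went to log2 after a pseudocount of 1. The 12475 genes whose mean over the 6 libraries reached 10 were fitted together in limma 3.58.1 (R 4.3.3, trended prior). All tests are two-sided, with Benjamini-Hochberg adjustment over all genes and a threshold of 0.05. Each limma p-value judges a group difference against the spread between these libraries, with 1 variance for both groups. SD is over 3 libraries. The script was tested on simulated data that had the vehicle spread in both groups. That test does not cover the spread of the doxorubicin libraries. Groups and replicate numbers came from the titles. Coordinates are RefSeq GRCm38.p6, the assembly behind mm10, and count from 1. Transcripts and Gm6644 are from GENCODE M21. Coding sequences were aligned with Biopython 1.88. Promoter windows were found for 7 of the 10 genes. Figures used matplotlib 3.10.9.

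The genes, lists and alternatives were chosen with earlier results of these data known. Alternatives changed the pseudocount, filter, scaling, moderation, library weights, threshold, block, covariate and libraries. In each related list the text names, among genes other than the 10, the 2 with the highest mean and the 3 with the largest difference without overlap, and always Nqo1, Cyb5r3, Aox1, Abcb8, Slc22a3 and Nfe2l2. The rule also named the 2 highest genes of each marker list, of which some are given beside the sums. Gm6644, Hsd11b1, Mafk, Nr1i2, Nr1i3, Col3a1, Col1a1 and Postn were named after their values were seen. Some genes the rule or lists hold are not reported here. Fits of the related genes without doxorubicin replicate 1 and the mural sum without Des were added after the values were seen. Protein comparisons were not made.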

Additional observations from a re-analysis of the deposited data

How the results depend on the processing

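The choice of library decided the calls. Limma called 0 genes and 0 of the 10 described with all 6 libraries, 0 to 5135 genes and 0 to 7 of the 10 when 1 library was left out (the upper ends without doxorubicin replicate 1, 0 without any other), 4271 genes and 6 of the 10 with library weights, and 3021 genes and 5 of the 10 at an adjusted p under 0.10. Pseudocounts of 0.5 and 8, no filter, a minimum mean of 50, equal totals, quantile normalization, no trend, robust estimation and a covariate for Xist or Y-linked class gave 0 for both. With the replicate number as a block, which the labels do not explain as a pairing (deviations of same-numbered libraries correlated at -0.128, 0.0332 and -0.0926), both were 0, with 3707 genes at an unadjusted p under 0.05 and 0.115 as the lowest adjusted p. With 3 balanced pairs a block leaves each difference as it was, so it tests only the error. Among 169 refitted differences of the 10 genes, 7 turned sign. Akr1b3 ran from -1.40 to 0.075 when 1 library was left out. Abcc1 ran from -0.20 to 0.11 in the same way, and was 0.29 with equal totals and 0.0034 with quantile normalization. Equal totals moved the median of all genes to 0.30, and with it the medians of the aldo-keto reductases to 0.042 (from -0.26) and of the listed uptake carriers to 0.17 (from -0.12). A minimum mean of 50 took the carbonyl reductase median to -0.066 (from 0.24), and Cbr3 is not tested there. Cbr3, at 13 to 40 reads per library, has the lowest mean of the 10 genes, so counting error widens its spread.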

Other observations

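Nqo1, which reduces quinones by electron pairs and is a standard target of the transcription factor encoded by Nfe2l2, had 477, 449 and 454 normalized counts after vehicle and 253, 1269.6 and 459 in doxorubicin replicates 1 to 3 (difference 0.20, limma adjusted p 0.796). Aox1, aldehyde oxidase and a relative of Xdh, had 186, 246 and 207 after vehicle and 183, 886 and 480.4 after doxorubicin. Without doxorubicin replicate 1 the difference of Aox1 was 1.62 (limma adjusted p 0.00224). Txnrd1, thioredoxin reductase, had 481, 1006 and 514 after doxorubicin against 499 to 547 after vehicle. Hsd11b1, which regenerates active glucocorticoid and can reduce drug ketones, had 42.7, 865 and 212 after doxorubicin against 47.6 to 104 after vehicle. These 4 genes were highest in doxorubicin replicate 2, Hsd11b1 having been picked after its values were seen, whereas Xdh and Cyb5r3 were highest in replicate 3, and Nqo2, Akr7a5 and Akr1b10 were higher in replicate 1 than in the other doxorubicin libraries.

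Of 11 transcription factor genes linked to this set, 9 were tested, and in 0 of these were the groups free of overlap. Nfe2l2 had 618, 637 and 547 normalized counts after vehicle and 606, 1192 and 1044 after doxorubicin (difference 0.60, limma adjusted p 0.136), and its partner gene Mafk had 374, 455 and 364 against 373, 933 and 584. In both genes doxorubicin replicate 1 lay in the vehicle range. Without it limma called 5 of the 9 as higher, Nfe2l2 among them (0.90, adjusted p 0.00269), beside 19.4% of all genes tested. Hif1a had a difference of -0.20. Nr1i2, the pregnane X receptor gene, was at 0 in every library, and Nr1i3 reached 0.875 in vehicle replicate 3 and was at 0 elsewhere.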
